A study of Mus musculus with 6 samples.

Results

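The Kruppel-like factors described here are Klf2, Klf3, Klf4, Klf5, Klf6, Klf7, Klf9, Klf10, Klf12 and Klf13, 10 genes of the 46078 in the count tables and 10 of the 17 family genes looked for. They were found by their symbols. The family was chosen by a measured value, the level of Klf6, which lay on opposite sides of the controls with the 2 inhibitors, so the members' differences between groups are given as a description, with a standard error and no p-value. All explants were mesoderm of E7.25 mouse embryos with a genotype labelled WT, cultured on fibronectin, a matrix protein, for 27 h in all. The series text gives 24 h and names a reporter strain for TCF/Lef, the DNA-binding partners of WNT signalling. The groups were explants given 1 µM of an inhibitor labelled PD for 16 h, explants given 10 µM YZ9, known to inhibit the glycolysis activator PFKFB3, also for 16 h, and control explants, with 2 libraries each. Whether controls received a vehicle, and whether explants were pooled, is not stated.

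Kruppel-like factors are transcription factors that bind GC-rich and CACCC-type DNA through a block of zinc fingers at the end of the protein. Their other parts differ: Klf2, Klf4, Klf5, Klf6 and Klf7 mostly activate genes, Klf3 and Klf12 bind the corepressor CtBP, and Klf9, Klf10 and Klf13 bind the corepressor Sin3a. In mouse embryos Klf6 is needed for yolk sac blood formation, Klf2 for the integrity of vessel walls, and Klf2, Klf4 and Klf5 act in the pluripotent cells of the early embryo.

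Total counts per library were 21253194 to 27810161. PD replicate 2 and YZ9 replicate 2 had Xist counts of a female (2119 and 3956), and the other 4 libraries had at most 1, with Y-linked counts of males. As a check of PD, a pair of genes induced by ERK was measured. Spry4, an inhibitor of growth factor receptors, had 0 counts in both PD libraries, against 630 and 699 in controls (edgeR adjusted p = 0.0378). The feedback phosphatase Dusp6 was at 4.38 and 1.13 CPM (counts scaled by library size) with PD, against 240.5 and 226 CPM in controls (adjusted p = 0.0655). Libraries stood apart in genes of other cells. The 7 red-cell genes other than Klf1 summed to 488 and 7061 CPM with PD and 20.6 and 1220 CPM with YZ9, against 2581 and 7768 CPM in controls. The 9 visceral endoderm genes summed to 91.1 CPM in PD replicate 1 and to between 4.97 and 17.6 CPM in the other libraries, with Hnf4a at 0 throughout. The mesoderm markers Mesp1, T and Tbx6 had too few counts to be tested. The 12 mesoderm markers together summed to 458 and 1025 CPM with PD and 344 and 755 CPM with YZ9, against 498 and 305 CPM in controls. Hand1 and Tbx20 made up most of each mesoderm sum. Of those tested, Hand2 and Meox1 lay below both controls with both inhibitors. Pdgfra and Foxf1 lay above both controls with PD, and Gata4 with YZ9. The 6 megakaryocyte genes summed to 20.6 and 25.6 CPM with PD and 9.05 and 8.77 CPM with YZ9, against 47.4 and 64.2 CPM in controls, and among them Tubb1, the platelet tubulin, fell with both inhibitors (adjusted p = 0.0463 and 0.0193). Tpbpa of the 6 trophoblast genes was at 0 throughout, and their sum was 2.98 to 9.33 CPM. Over all genes, edgeR called 0 in any comparison when either control library was left out, these genes included. The part of these differences in the values that follow was not tested, and in bulk RNA fewer cells of a type cannot be told apart from less RNA per cell.

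The sequences before the gene starts of 4 members are shown. Klf6 and Klf9 were chosen because they were higher in both PD libraries, and Klf4 because it was lower in both YZ9 libraries. Klf2 was chosen because it has a site for MEF2, the factor through which the kinase ERK5 is known to induce it. The sequences come from RefSeq in GRCm38.p6, end before the gene start that GENCODE gives, and run 5′ to 3′ on the gene's strand. Capitals mark GGGCGG, a GC box, or CACCC, both of which the family's zinc fingers bind, each on either strand. They also mark the MEF2 site and TGANTCA, a looser pattern than the AP-1 site, with any base at N. The stretches are chr13:5861239-5861481 on the plus strand for Klf6, chr19:23140976-23141225 on the plus strand for Klf9, chr4:55532476-55532725 on the minus strand for Klf4, and chr8:72318812-72319032 on the plus strand for Klf2.
Klf6: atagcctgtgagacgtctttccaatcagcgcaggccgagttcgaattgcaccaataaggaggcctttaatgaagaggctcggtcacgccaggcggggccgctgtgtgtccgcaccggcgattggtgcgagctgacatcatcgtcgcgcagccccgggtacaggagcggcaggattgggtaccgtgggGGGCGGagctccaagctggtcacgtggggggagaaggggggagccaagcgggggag
Klf9: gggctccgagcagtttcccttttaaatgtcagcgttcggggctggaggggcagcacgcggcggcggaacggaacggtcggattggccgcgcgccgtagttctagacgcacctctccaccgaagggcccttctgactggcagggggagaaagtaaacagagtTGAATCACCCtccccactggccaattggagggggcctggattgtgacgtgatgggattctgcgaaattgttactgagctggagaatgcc
Klf4: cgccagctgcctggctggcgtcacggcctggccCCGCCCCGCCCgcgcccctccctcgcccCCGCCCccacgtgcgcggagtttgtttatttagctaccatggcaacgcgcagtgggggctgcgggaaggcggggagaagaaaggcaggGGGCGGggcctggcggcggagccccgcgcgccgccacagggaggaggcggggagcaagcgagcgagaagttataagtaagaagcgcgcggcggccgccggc
Klf2: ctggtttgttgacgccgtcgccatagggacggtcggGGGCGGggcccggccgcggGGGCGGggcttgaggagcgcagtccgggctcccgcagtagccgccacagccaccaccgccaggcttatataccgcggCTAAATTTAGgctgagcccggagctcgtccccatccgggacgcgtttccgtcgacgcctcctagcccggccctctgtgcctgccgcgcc

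Klf6 holds 1 GC box and no CACCC, Klf9 holds a single run in which TGANTCA overlaps CACCC, Klf4 holds 4 GC boxes, and Klf2 holds 2 GC boxes and 1 MEF2 site. A CACCC of Klf2 lies in bases not printed, inside the gene as GENCODE draws it, and matches that overlap were each counted. In the 250 bases before the RefSeq start, 8 of the 10 members had a window, and 6 of these 8 held CACCC and 6 held GGGCGG. Of all 32851 such windows, 52.0% held CACCC and 32.7% held GGGCGG. The pattern TGANTCA, found in Klf9 alone of the 8, is in 6.75% of all windows. Its match in Klf9 reads TGAATCA, whereas the AP-1 site has C or G in the middle. The MEF2 site, found in Klf2 alone, is in 1.69% of all windows. CCGGAAG, a form of the ETS site, and the CArG box bound by serum response factor were in 0 of the 8, against 6.91% and 1.47% of all windows. The G and C share of the windows ran from 48.0% in Klf12 to 78.4% in Klf3, against a median of 52.4% over all windows. TATAAA was in Klf12 alone, against 12.4% of all windows. A match describes letters, not a bound site.

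Klf6 was by far the most abundant member. Its level per length in TPM (transcripts, scaled by gene length and to 1 fixed total per library) was 682 ± 29.3 with PD and 378 ± 8.67 with YZ9, against 508 ± 18.7 in controls (SD, n = 2 each), and it ranked 320 among all genes in controls. Klf6 made up 70.6% and 64.3% of the TPM of the 17 family genes with PD and 56.8% and 58.6% with YZ9, against 64.4% and 61.0% in controls. Klf13 came next at 82.5 ± 13.6 TPM in controls. Klf7 at 41.7 ± 0.200 TPM and Klf10 at 33.2 ± 7.49 TPM followed, and these neighbours changed places when the longest transcript set the length (33.2 and 34.2 TPM). Klf3 was at 16.4 ± 0.791 TPM, Klf4 at 12.4 ± 1.07 TPM, Klf5 at 7.50 ± 2.05 TPM and Klf9 at 5.06 ± 0.486 TPM. The gaps between Klf7 and Klf10 and between Klf5 and Klf9 were close to the SD of the more variable gene. At the low end stood Klf2 at 1.85 ± 0.145 TPM and Klf12 at 0.442 ± 0.471 TPM.

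**Figure D1:**
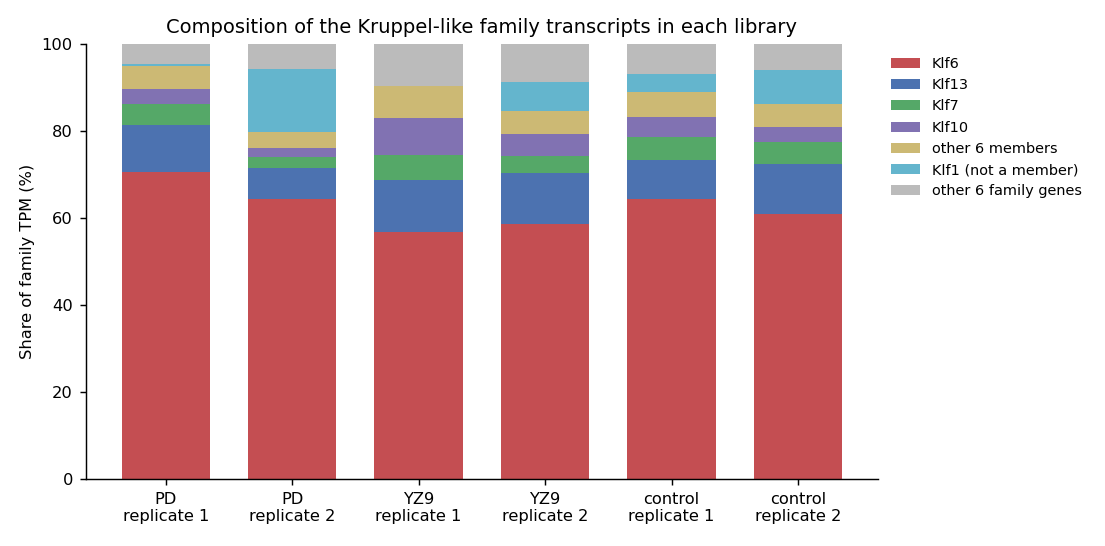
Share of each Kruppel-like gene in the summed TPM of 17 family genes (y axis, %), 1 bar per library. Klf6 takes 56.8% to 70.6% of every bar, and the band of Klf1, which is not a member, runs from 0.135% in YZ9 replicate 1 to 14.3% in PD replicate 2.

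The summed TPM of the 10 members was 943 and 821 with PD and 591 and 555 with YZ9, against 719.6 and 698 in controls. Without Klf6 the other 9 members summed to 241 and 159.9 TPM with PD and 219 and 171 TPM with YZ9, against 198 and 204 TPM in controls. The groups were thus apart in the sum with Klf6 and overlapped in the sum without it.

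Among the activators, Klf6, an immediate early zinc finger gene, had 1039 and 962 CPM with PD and 488 and 498 CPM with YZ9, against 745 and 749 CPM in controls. Both PD libraries were above both controls and both YZ9 libraries were below them, with the libraries of a group close to each other. The fold was 1.34 with PD (log2 fold change 0.42, SE 0.12) and 0.660 with YZ9 (log2 fold change -0.60, SE 0.12). Leaving out any 1 library kept Klf6 between 0.37 and 0.48 on the log2 scale with PD and between -0.60 and -0.58 with YZ9. Of the 15568 genes tested, 353 (2.27%) had both PD libraries above and both YZ9 libraries below the controls, and 205 (1.32%) the reverse, 3.58% in all. Of the 353, 96 including Klf6 had differences at least as large as those of Klf6 in both directions, and 10 including Klf6 were at least as abundant in controls by CPM. Klf6 (ENSMUSG00000000078) lies on chromosome 13, 5861482 to 5870394, in GRCm38 by GENCODE M21, as are all gene positions given here.

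Klf7, the closest relative of Klf6 and a gene of neuron development, had 130.2 and 68.6 CPM with PD and 93.2 and 60.7 CPM with YZ9, against 109.9 and 117 CPM in controls. The PD libraries lay on either side of the controls, and both YZ9 libraries were below them. The log2 fold change was -0.19 (SE 0.33) with PD, which was -0.73 without PD replicate 1 and 0.20 without PD replicate 2, and -0.56 (SE 0.33) with YZ9. Exons of Klf7 (chromosome 1, 64029447 to 64122282) share 3200 of 8131 bases with genes on the opposite strand, and the library kit keeps no strand.

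Klf4, a reprogramming factor that also builds epithelial barriers, had 13.3 and 10.5 CPM with PD and 5.11 and 7.12 CPM with YZ9, against 11.5 and 13.8 CPM in controls. The PD libraries overlapped the controls, and both YZ9 libraries were lower, with a fold of 0.483 (log2 fold change -1.05, SE 0.30), the lowest fold of any member with YZ9. With PD the log2 fold change was -0.09 (SE 0.30), which was 0.07 without PD replicate 2 and 0.04 without control replicate 2. Leaving out 1 library gave Klf4 between -1.30 and -0.82 with YZ9. Klf4 lies on chromosome 4, 55527143 to 55532466.

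Klf2, the flow-induced factor of endothelium, was near the lower limit of measurement with 41 and 43 counts with PD and 26 and 19 counts with YZ9, against 28 and 33 counts in controls. Both PD libraries were above both controls (1.58 and 1.73 CPM, against 1.05 and 1.24 CPM), and the YZ9 libraries overlapped them. The log2 fold change was 0.53 (SE 0.53) with PD and -0.35 (SE 0.53) with YZ9, neither clearly beyond its standard error, and the value with YZ9 was 0.04 without YZ9 replicate 2. The 8 endothelial marker genes summed to 220.2 and 166.8 CPM with PD and 257 and 217 CPM with YZ9, against 259 and 241 CPM in controls. Within that sum, 0 genes were above and 5 below both controls with PD, against 19.2% and 19.5% of all genes. With YZ9, 2 were above and 3 below, against 21.1% and 24.5% of all genes. Klf2 lies on chromosome 8, 72319033 to 72321656.

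Klf5, a factor of dividing epithelial and early embryonic cells, had 20.6 and 10.5 CPM with PD and 28.1 and 8.20 CPM with YZ9, against 15.1 and 10.8 CPM in controls. Both the PD and the YZ9 libraries spanned the range of the controls. The log2 fold change was 0.26 (SE 0.60) with PD and 0.48 (SE 0.60) with YZ9, and these values were -0.30 without PD replicate 1 and -0.65 without YZ9 replicate 1. The 7 surface epithelium markers summed to 11419 and 6999.5 CPM with PD and 6937 and 5437 CPM with YZ9, against 5305 and 4706 CPM in controls. Krt8 and Krt18 made up most of each sum, with folds of 1.85 and 1.61 with PD and 1.35 and 0.975 with YZ9. Folds with PD and YZ9 were 18.0 and 25.4 for Cdh1, 18.0 and 16.5 for Epcam and 59.1 and 32.2 for Cldn6. They were 23.0 and 15.8 for Cldn4 and 7.81 and 15.4 for Grhl2. The SE of these 5 genes was 0.90 to 1.58 on the log2 scale. Of the 7 markers, 7 were above both controls in both PD libraries and 6 in both YZ9 libraries, against 19.2% and 21.1% of all genes, with none at 0 throughout. edgeR called 0 in either, with 6 at an unadjusted p under 0.05 in each, and DESeq2 called 4 and 3. Their part in the levels of Klf4 and Klf5 was not tested. Klf5 lies on chromosome 14, 99298691 to 99315036.

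**Figure D2:**
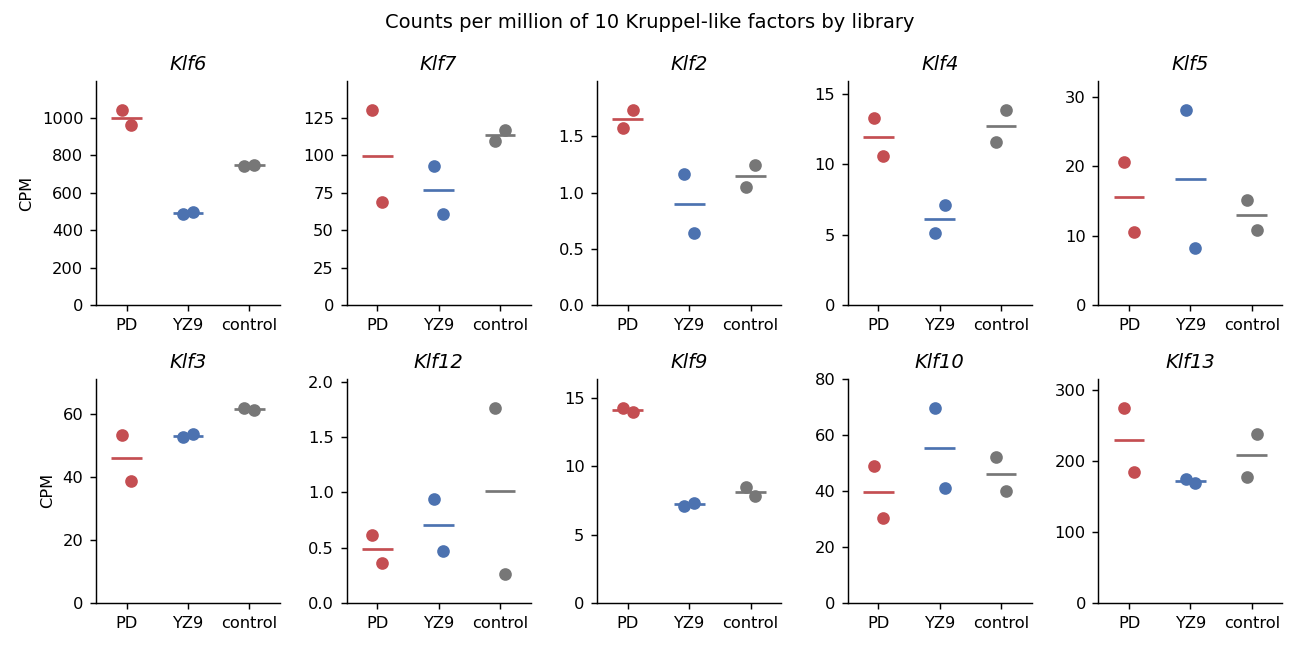
CPM of the 10 members in each library (points) with the group mean (line), for PD, YZ9 and control, each panel with its own y axis starting at 0. Klf6 separates into 3 groups with PD at 962 to 1039 CPM, YZ9 at 488 to 498 CPM and control at 745 to 749 CPM, while the libraries of Klf5, Klf7 and Klf12 spread widely within groups.

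Of the CtBP-binding repressors, Klf3, which restrains red-cell and fat-cell genes, had 53.4 and 38.8 CPM with PD and 52.6 and 53.5 CPM with YZ9, against 61.9 and 61.2 CPM in controls. All 4 treated libraries were below both controls. The log2 fold change was -0.42 (SE 0.20) with PD, which was -0.20 without PD replicate 2, and -0.21 (SE 0.20) with YZ9. Klf3 lies on chromosome 5, 64803388 to 64832901, and shares 404 of 11243 exon bases with a gene on the opposite strand. Klf12 was barely detected, with 16 and 9 counts with PD and 21 and 14 counts with YZ9, against 47 and 7 counts in controls. Its direction rested on control replicate 1: the log2 fold change with PD was -1.04 (SE 0.97) and became 0.88 without that library, and with YZ9 it was -0.53 (SE 0.95) and also changed sign. Klf12 lies on chromosome 14, 99870632 to 100284679.

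Of the Sin3-binding members, Klf9, a gene induced by thyroid hormone and glucocorticoids, had 14.3 and 14.0 CPM with PD and 7.12 and 7.29 CPM with YZ9, against 8.47 and 7.83 CPM in controls. The PD libraries stood well above all 4 others, and the YZ9 libraries lay just under the controls. The fold with PD was 1.73 (log2 fold change 0.79, SE 0.25), the highest of any member in either comparison with control, and the log2 value stayed between 0.73 and 0.85 when any 1 library was left out. With YZ9 the log2 fold change was -0.18 (SE 0.25), smaller than its standard error. Klf9 lies on chromosome 19, 23141226 to 23168134.

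Klf10, an early response gene of TGF-beta signalling, had 49.1 and 30.4 CPM with PD and 69.8 and 41.1 CPM with YZ9, against 52.3 and 40.1 CPM in controls. The groups overlapped, with log2 fold changes of -0.22 (SE 0.34) with PD and 0.26 (SE 0.34) with YZ9. The value with PD was 0.09 without PD replicate 2, and that with YZ9 was -0.16 without YZ9 replicate 1. Klf13, a factor of heart development, had 275 and 184 CPM with PD and 175 and 169.8 CPM with YZ9, against 178 and 239 CPM in controls. The PD libraries overlapped the controls (log2 fold change 0.14, SE 0.23, which was -0.18 without PD replicate 1 and -0.06 without control replicate 1), and the YZ9 libraries lay just under the lower control (log2 fold change -0.27, SE 0.23, which was -0.05 without control replicate 2). Klf10 lies on chromosome 15, 38291463 to 38300706, and Klf13 on chromosome 7, 63886351 to 63938915.

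Counted over the family, the PD libraries were both above both controls for 3 of the 10 members (Klf2, Klf6 and Klf9) and both below for 1 (Klf3). The groups were apart in this way for 38.7% of all genes tested, 19.2% above and 19.5% below. With YZ9, 0 members were above and 6 were below both controls (Klf3, Klf4, Klf6, Klf7, Klf9 and Klf13), against 21.1% and 24.5% of all genes (45.7% in all). Klf9 and Klf13 counted among these 6 by small margins. Members' median log2 fold change was 0.03 with PD and -0.31 with YZ9, beside 0.00 for all genes in both. Both comparisons use the same controls, and the choice of the family used these values, so nothing is read from the counts. All 10 members passed the filter on low counts.

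**Figure D3:**
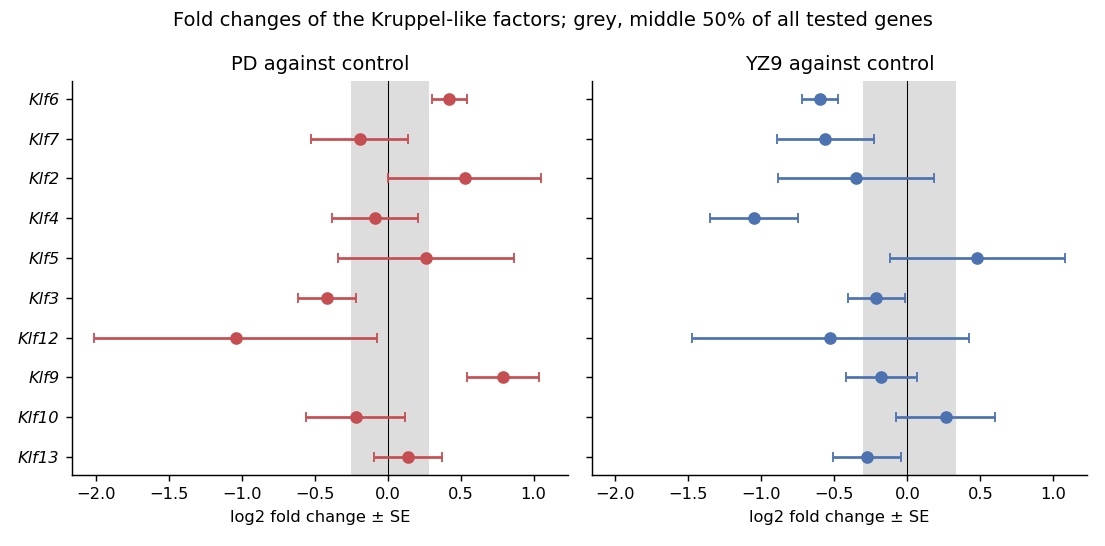
Log2 fold change (x axis, points) with its SE (bars) of each member with PD (left) and YZ9 (right) against control, with the range of the middle 50% of all tested genes in grey. Klf6 lies to the right with PD at 0.42 and to the left with YZ9 at -0.60, Klf9 is furthest right with PD at 0.79, and Klf4 is furthest left with YZ9 at -1.05.

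At an adjusted p under 0.05 edgeR called 0 of the 10 members with PD, where 0.0964% of all genes were called (0.0193% higher and 0.0771% lower), and 0 with YZ9, where 0.00642% were called. An unadjusted p under 0.05 was reached by 2 members in each comparison, and by 1682 (PD) and 1755 (YZ9) of the 15568 genes tested. DESeq2 called 0 members with PD, where it called 3.99% of the genes with an adjusted p, and 1 with YZ9, Klf6, where it called 3.11%. With limma-trend 0 were called in both, with 0.128% of all genes called with PD and 0.00642% with YZ9. These shares over all genes also stand beside the counts for the gene lists below. The authors' deposited table gives Klf6 a log2 fold change of 0.42 with PD and -0.58 with YZ9. Klf6 with these inhibitors is the value by which the family was chosen, so its calls, here and between PD and YZ9, test nothing and are counted only beside the share of all genes.

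PD was also set directly against YZ9, with the spread still estimated from all 6 libraries. Klf2, Klf4, Klf6, Klf9 and Klf13, 5 of the 10, were higher in both PD libraries than in both YZ9 libraries and 0 were lower, against 21.6% and 21.4% of all genes (43% in all). The fold was 2.03 for Klf6 (log2 fold change 1.02, SE 0.12), 1.96 for Klf9 (0.97, SE 0.25) and 1.95 for Klf4 (0.96, SE 0.30). The members' median was 0.39 beside 0.00 for all genes. edgeR called 0 members, where 0.122% of all genes were called (0.0771% higher and 0.045% lower). An unadjusted p under 0.05 was reached by 3 members and by 1788 of the 15568 genes tested. DESeq2 called 2 (Klf6 and Klf9), where it called 3.37% of all genes with an adjusted p, and limma-trend 1 (Klf6), where it called 0.218%. The controls lay between both groups for Klf6, close to the YZ9 libraries for Klf9 and among the PD libraries for Klf4.

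The other 7 family genes were not part of the choice and were tested over all genes. Of these, 6 passed the filter on low counts and edgeR called 0 in any comparison, with 0 at an unadjusted p under 0.05 and 0 by DESeq2 or limma-trend. Klf1, the activator of globin genes in red cells, had 2.77 and 74.3 CPM with PD and 0.403 and 19.1 CPM with YZ9, against 16.9 and 34.1 CPM in controls. The order of the 6 libraries by Klf1 was close to that by the other red-cell genes given above, with both lowest in YZ9 replicate 1. Its log2 fold change was 0.59 with PD (SE 1.63, adjusted p = 0.958) and -1.38 with YZ9 (SE 1.66, adjusted p = 0.781). The value with PD was -3.20 without PD replicate 2 and below 0 in 4 of 14 alternatives. With sex as a covariate in edgeR, Klf1 passed the threshold as lower with PD (adjusted p = 0.0362) and with YZ9 (adjusted p = 0.0142). Among treated libraries sex cannot be told apart from replicate number, and both controls were male. PD replicate 1 and YZ9 replicate 1, at 2.77 and 0.403 CPM, were the only treated libraries of the controls' sex. Klf8, a CtBP-binding gene on the X chromosome, had 4.84 and 17.5 CPM with PD and 4.30 and 7.42 CPM with YZ9, against 5.10 and 4.25 CPM in controls (adjusted p = 0.554 with PD and 0.865 with YZ9 in edgeR). Its 2 highest libraries were the 2 female ones. The intronless gene Klf14 had 3.65 and 12.2 CPM with PD and 5.73 and 14.6 CPM with YZ9, against 13.3 and 12.7 CPM in controls (adjusted p = 0.808 and 0.862 in edgeR). Klf11 and Klf16, which bind Sin3a, had log2 fold changes of 0.28 and -0.17 with PD and 0.43 and -0.28 with YZ9 (SE 0.32 and 0.25). Klf15, a metabolic regulator of muscle and liver, had 28 and 63 counts with PD and 32 and 94 counts with YZ9, against 33 and 13 counts in controls. Klf17, a gene of oocytes and early embryos, had 1 count in all.

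The Sp factors share the zinc fingers of the family and bind the same GC boxes. Of the 9, 6 passed the filter and edgeR called 0, with an unadjusted p under 0.05 for 1 gene with YZ9 and for 0 with PD. That gene was Sp5, a direct target of WNT signalling, with 18 and 8 counts with PD and 85 and 76 counts with YZ9, against 7 and 9 counts in controls. Both YZ9 libraries were far above the other 4. The log2 fold change with YZ9 was 3.38 (SE 0.63, edgeR adjusted p = 0.181), DESeq2 called it (adjusted p = 0.00110), and the adjusted p ran from 0.00110 to 0.852 over 13 alternatives. PD against YZ9 gave Sp5 -2.64 on the log2 scale (SE 0.60, adjusted p = 0.215). The general factors Sp1 and Sp3 had log2 fold changes of -0.12 and -0.03 with PD and 0.16 and -0.07 with YZ9 (SE 0.17 to 0.19). Sp2 and Sp4 overlapped the controls with PD, at -0.15 (SE 0.39) and 0.11 (SE 0.29). With YZ9 their log2 fold changes were 0.35 (SE 0.39) and 0.34 (SE 0.29), and both YZ9 libraries were above both controls for Sp4 (14.3 and 14.2 CPM, against 13.8 and 8.69 CPM) and overlapped them for Sp2. Sp8, a factor of limb and brain, had 65 counts in PD replicate 1 and 5 to 19 in the other libraries. Sp6, Sp7 and Sp9 had at most 10 counts in any library.

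Cofactors of the family were tested next. Of 14 corepressor and coactivator genes, edgeR called 0 with PD and 0 with YZ9 (0 and 2 at an unadjusted p under 0.05, and 0 by DESeq2 and limma-trend), and the medians over the list were -0.09 and -0.16 (log2). Fhl3, a LIM-domain partner of Klf3, had the smallest p in both: it was at 3.04 and 21.8 CPM with PD and 9.81 and 3.20 CPM with YZ9, against 60.9 and 40.9 CPM in controls, and its log2 fold changes were -2.04 (SE 0.90, adjusted p = 0.501) and -2.97 (SE 0.94, adjusted p = 0.336). The corepressors Ctbp1 and Ctbp2 had log2 fold changes of 0.12 and -0.17 with PD and -0.11 and -0.23 with YZ9 (SE 0.19 to 0.21), and Sin3a had 0.01 and 0.46 (SE 0.18). Ctbp1 and Ctbp2 were named after their values were seen. Sin3a had the smallest p of the list in PD against YZ9 (log2 fold change -0.45, SE 0.18, edgeR adjusted p = 0.425).

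Upstream of Klf2 and Klf4 stand the ERK5 kinase cascade, MEF2 factors and the CCM proteins, which restrain that cascade in endothelium. Of 12 such genes edgeR called 0 with PD and 0 with YZ9 (2 at an unadjusted p under 0.05 in each, and 1 with PD and 0 with YZ9 by DESeq2), with list medians of 0.07 and 0.10. Mef2c, a cardiac and vascular MEF2 factor, was at 67.0 and 31.2 CPM with PD and 122 and 83.0 CPM with YZ9, against 183 and 202 CPM in controls. All 4 treated libraries were below both controls, with log2 fold changes of -1.97 (SE 0.38, adjusted p = 0.154) and -0.90 (SE 0.37, adjusted p = 0.427). The gene called by DESeq2 with PD was Mef2c. Heg1, the receptor that anchors the CCM complex, had 51.9 and 74.7 CPM with PD and 44.9 and 43.0 CPM with YZ9, against 76.7 and 75.9 CPM in controls, and its difference with YZ9 was -0.80 on the log2 scale (SE 0.21, adjusted p = 0.257).

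Endothelial genes known as targets of Klf2 or Klf4 differed widely among themselves. Of 13, 12 were tested, and edgeR called 0 with PD and 0 with YZ9, with 4 and 6 at an unadjusted p under 0.05 and 4 in each by DESeq2, and 0 by limma-trend. Their median log2 fold change was 0.49 with PD and -0.89 with YZ9. The list joins genes that these factors induce, such as Nos3, and genes that they repress, such as Vcam1. Its median and counts therefore give no direction of Klf2 or Klf4 activity. Both treated libraries were above both controls for 5 genes and below for 3 with PD, and above for 2 and below for 6 with YZ9. Over all genes these shares were 19.2% and 19.5% with PD and 21.1% and 24.5% with YZ9. Plpp3, a lipid phosphatase of vessel walls, was at 59.1 and 74.4 CPM with PD and 26.2 and 46.8 CPM with YZ9, against 17.5 and 18.7 CPM in controls (log2 fold change 1.88 with PD, SE 0.31, adjusted p = 0.112, and 1.01 with YZ9, SE 0.30, adjusted p = 0.317). Cav1, the main caveola protein, was at 81.0 and 60.3 CPM with PD and 24.2 and 12.3 CPM with YZ9, against 148 and 164 CPM in controls (log2 fold change -1.15 with PD, SE 0.32, adjusted p = 0.250, and -3.10 with YZ9, SE 0.35, adjusted p = 0.114). Vcam1, an adhesion molecule, was at 47.8 and 93.7 CPM with PD and 15.0 and 16.1 CPM with YZ9, against 46.9 and 39.2 CPM in controls. It lay above the controls with PD, by a small margin in PD replicate 1, and below them with YZ9 (adjusted p = 0.506 and 0.227). PD against YZ9 gave Vcam1 2.19 on the log2 scale (SE 0.33, adjusted p = 0.0990). DESeq2 called each of the 3 in at least 1 comparison. A pair of genes named after their values were seen, Nos3 and Thbd, are known to be induced by Klf2. Nos3, the nitric oxide synthase of endothelium, was at 0.500 and 1.01 CPM with PD and 1.57 and 1.32 CPM with YZ9, against 0.450 and 0.489 CPM in controls (adjusted p = 0.815 and 0.405). Thbd, the anticoagulant receptor thrombomodulin, was at 229 and 46.0 CPM with PD and 77.6 and 22.0 CPM with YZ9, against 411 and 609 CPM in controls (adjusted p = 0.494 and 0.259). All 4 treated libraries were below the controls for Thbd. They were above the controls for Nos3, which was near the lower limit of measurement. PD replicate 1 had 13 Nos3 counts, against 12 and 13 counts in controls, and was above them only after scaling by library size.

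**Figure D4:**
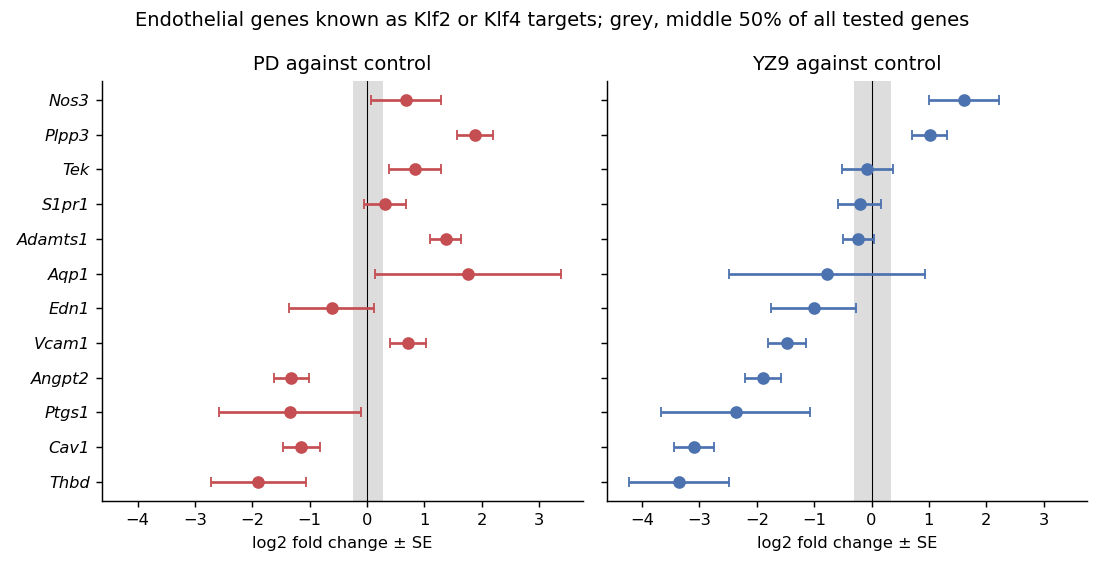
Log2 fold change (x axis, points) with its SE (bars) of the 12 tested endothelial genes known as Klf2 or Klf4 targets, with PD (left) and YZ9 (right) against control, and the range of the middle 50% of all tested genes in grey. The list's median is 0.49 with PD and -0.89 with YZ9, and Plpp3 lies right of 0 in both panels while Cav1 lies left of 0 in both. The list joins genes that Klf2 or Klf4 induce and genes that they repress.

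The early embryo's partners of Klf2, Klf4 and Klf5 were mostly silent: 5 of 12 naive pluripotency genes passed the filter, and Pou5f1, Nanog, Esrrb, Nr0b1, Prdm14, Dppa3 and Zfp42 did not. edgeR called 0 of the 5 in any comparison, with 1 at an unadjusted p under 0.05 with PD and 2 with YZ9, and DESeq2 called 1 and 2. Tfcp2l1, a naive pluripotency and kidney factor, was at 5.50 and 2.46 CPM with PD and 2.87 and 5.40 CPM with YZ9, against 0.637 and 0.640 CPM in controls (log2 fold change 2.63, SE 0.59, adjusted p = 0.186, and 2.69, SE 0.59, adjusted p = 0.221). Tbx3, which is also a mesoderm and limb factor, was at 3.31 and 6.96 CPM with PD and 17.5 and 34.3 CPM with YZ9, against 3.64 and 1.47 CPM in controls (log2 fold change with YZ9 3.34, SE 0.62, adjusted p = 0.181).

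Response genes of the signals that induce members were set beside them. The 12 TGF-beta response genes, the class to which Klf10 belongs, had medians of -0.02 with PD and -0.04 with YZ9. edgeR called 0 in either, with 3 and 1 at an unadjusted p under 0.05, and DESeq2 called 2 and 0. Their smallest p was that of Eng, an endothelial coreceptor, with PD (319 and 248 counts, against 1066 and 547 counts in controls, adjusted p = 0.260). With YZ9 it was that of the ligand gene Tgfb1 (0.806 and 0.506 CPM, against 1.72 and 1.84 CPM in controls, adjusted p = 0.404). The 8 glucocorticoid-responsive genes, the class to which Klf9 belongs, had medians of -0.28 and 0.07, and edgeR called 0 in either, with 1 and 2 at an unadjusted p under 0.05 and 1 in each by DESeq2. The glucocorticoid receptor gene Nr3c1 itself was at 6.84 and 6.36 CPM with PD and 6.72 and 7.45 CPM with YZ9, against 15.5 and 14.8 CPM in controls. All 4 treated libraries were below the controls, with log2 fold changes of -1.20 (SE 0.25, adjusted p = 0.167) and -1.10 (SE 0.25, adjusted p = 0.229), and DESeq2 called Nr3c1 in both. Between PD and YZ9 the smallest p among the glucocorticoid-responsive genes belonged to Cebpd, a leucine zipper factor (log2 fold change 1.44, SE 0.33, adjusted p = 0.213). Any part of the receptor gene in the level of Klf9 was not tested.

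Immediate early genes, which tissue handling can induce along with Klf2, Klf4 and Klf6, were also counted. Of 16, 1 fell and 0 rose with PD over all genes (5 at an unadjusted p under 0.05, 3 by DESeq2 and 1 by limma-trend), and edgeR called 0 with YZ9 (1 at an unadjusted p under 0.05, and 1 by DESeq2). The list's median was -0.65 with PD and 0.13 with YZ9. The gene that fell was Egr1, an ERK-induced zinc finger factor that binds a related GC-rich site, with 2 and 1 counts with PD and 1766 and 861 counts with YZ9, against 1236 and 772 counts in controls (edgeR adjusted p = 0.0417 for PD against control and 0.0276 for PD against YZ9). That call ended without any 1 of the control or PD libraries, and over 14 alternatives the adjusted p ran from 1.67e-18 to 0.342. Btg2 had the smallest p with YZ9, at 246 and 128 CPM with PD and 200.5 and 191 CPM with YZ9, against 447 and 601 CPM in controls (log2 fold change with YZ9 -1.42, SE 0.31, adjusted p = 0.224).

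The 5 genes whose log2 CPM followed Klf6 most closely over the 6 libraries, among 10123 genes with a mean of at least 5 CPM, were Spag9, Crip1, App, Ripply1 and Tbl1xr1, with Pearson r between 0.994 and 0.998. These values describe likeness over 6 libraries in 3 groups and carry no test. The range was wider than that of Klf6 in Ripply1, at 40.7 and 38.5 CPM with PD and 5.87 and 6.10 CPM with YZ9, against 21.5 and 20.7 CPM in controls. It was narrower in Spag9, with 89.7 and 85.2 CPM with PD and 65.9 and 67.0 CPM with YZ9, against 77.9 and 78.1 CPM in controls.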

How the data were processed

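RNA of 6 mesoderm explant libraries was sequenced. The submitters' processing notes name CASAVA 1.8.2, STAR 2.7.9a, DESeq2 1.40.1 and GRCm38, while counter and annotation release were not given in the sources used here. Per the file headers, the 2 deposited tables (46078 genes each) hold whole-number counts per gene and library. They also hold a normalized signal, which the authors made by dividing counts by 1 size factor per library, the Wald score, the authors' log2 fold changes and their p-values. The authors' fold changes are quoted once.

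Counts were joined over both tables, whose control columns are identical, filtered with filterByExpr (minimum count 10, minimum total 15, leaving 15568 genes) and scaled by TMM. edgeR 4.0.16 (R 4.3.3) fitted all 6 libraries by quasi-likelihood, two-sided, with Benjamini-Hochberg adjustment over all genes. SE was taken as the size of the log2 fold change divided by the root of its F value. CPM use TMM-scaled library sizes. TPM use exon-union lengths of GENCODE M21, which 45229 genes had. DESeq2 1.42.0 and limma 3.58.1 were alternatives. The pipeline was tested on simulated data.

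Whether the 2 libraries of a group are separate embryos or cultures is not in the labels, so p-values measure only the spread between these libraries. By their Xist and Y-linked counts, the 2 libraries differed in sex with PD and with YZ9, so each of these pairs came from different embryos. Both control libraries were male. Between the libraries of a group the mean chi-square per gene was 54.7 to 96.0, so none was a repeat of another. The members, lists and tests were chosen with earlier results of these data known. Genes were named by a rule: all members, all other Kruppel-like and Sp genes, and of each pathway list up to 4 genes past the threshold or else the gene with the smallest p in each comparison, with Dusp6 and Spry4 as a check of PD and the 5 genes most like Klf6. Not all genes so named are reported here. Members without a RefSeq window (Klf5 and Klf10) have no motif values.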

Additional observations from a re-analysis of the deposited data

How the results depend on the processing

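The number of genes called, over all genes, moved with the model. For PD against control (15 genes) it was 622 with DESeq2, 712 without the filter, 124 with sex as a covariate and 1 with the replicate number as a block, and 0 to 33 when 1 library was left out. For YZ9 against control (1 gene) it was 501, 556, 122 and 3 under the same settings, 5 in the 4 libraries alone, and 0 to 9 with 1 library left out. For PD against YZ9 (19 genes) it was 525, 601, 173 and 12, 0 in the 4 libraries alone, 34 with limma-trend, and 0 to 35 with 1 library left out. Leaving out either control library gave 0 calls in all 3 comparisons. Replicate numbers pair nothing by the labels, and deviations of same-numbered libraries correlated at -0.117 (PD and control), 0.248 (YZ9 and control) and 0.377 (PD and YZ9). Klf1 with PD was -3.36 with sex as a covariate (adjusted p = 0.0362), against 0.59, and also below 0 with limma-trend (-0.72), the replicate block (-1.09) and without PD replicate 2 (-3.20). With YZ9 it was -5.58 with sex as a covariate (adjusted p = 0.0142). In these fits sex cannot be told apart from replicate number among treated libraries, since both female libraries were replicate 2. Among members, sex as a covariate changed the sign of Klf7 and Klf10 with PD (0.12 and 0.10 on the log2 scale). It moved Klf5 with PD to 0.88 and Klf7 with YZ9 to -0.21. The causes were not tested. Klf3, Klf6 and Klf9 kept their direction under 14 of 14 alternatives in each comparison. So did Klf4, Klf7 and Klf13 with YZ9, and Klf4, Klf10 and Klf13 in PD against YZ9. Klf2 did under 13 of 13 with PD and in PD against YZ9. The count of genes on opposite sides of the controls was 558 with either scaling. Klf2 and Klf12, with at most 47 counts in a library, are limited by depth.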
